A study of Mus musculus with 34 samples.

Results

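The 9 genes described here encode the enzymes that lengthen and desaturate fatty acids in the liver: the elongases Elovl1, Elovl2, Elovl3, Elovl5 and Elovl6, and the desaturases Fads1, Fads2, Scd1 and Scd2. They were taken by name from the 18193 genes that had a probe set with a single symbol on the array, and all 9 were among the 13099 genes kept for testing. Each gene stands for its probe set of highest mean signal over the 34 arrays.

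Fatty acids made by the cell or taken from the diet are lengthened in the endoplasmic reticulum by a cycle whose first and rate-setting enzyme is an ELOVL elongase. ELOVL6 extends palmitate toward stearate, ELOVL1 and ELOVL3 work on longer saturated and monounsaturated chains, and ELOVL5 and ELOVL2 extend polyunsaturated chains in turn. FADS2 and FADS1 place the double bonds that turn linoleic acid and alpha-linolenic acid into arachidonic, eicosapentaenoic and docosahexaenoic acids, while the stearoyl-CoA desaturases make oleate and palmitoleate. In mice SCD1 is the main stearoyl-CoA desaturase of adult liver and SCD2 that of brain and of the newborn liver. SREBP-1c, LXR and ChREBP are known to drive many of these genes, and Elovl3 in mouse liver is known for a male bias and a daily rhythm.

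The upstream sequences of both polyunsaturated fatty acid elongases are shown. Below, Elovl2 rose with the transgene at week 48, Elovl5 with peretinoin at week 20 and with age in transgenic liver. Both rose in tumours against wild type liver. No link between these sequences and the changes was tested. RefSeq's promoter table on GRCm38.p6 held entries for 5 of the 9 members, and the 250 bases before the start site are printed 5′ to 3′ on the gene's strand. Capitals mark CCAAT (the CCAAT box) and CACGTG (the E-box), on either strand. The Elovl5 window is chr9:77917115-77917364 on the plus strand, and the Elovl2 window, before its outermost start, is chr13:41220404-41220653 on the minus strand.
Elovl5: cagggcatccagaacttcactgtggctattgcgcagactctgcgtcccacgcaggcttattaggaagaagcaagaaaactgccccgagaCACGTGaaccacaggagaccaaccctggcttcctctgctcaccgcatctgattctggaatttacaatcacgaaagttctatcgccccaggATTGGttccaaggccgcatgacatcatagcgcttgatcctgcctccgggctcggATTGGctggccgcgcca
Elovl2: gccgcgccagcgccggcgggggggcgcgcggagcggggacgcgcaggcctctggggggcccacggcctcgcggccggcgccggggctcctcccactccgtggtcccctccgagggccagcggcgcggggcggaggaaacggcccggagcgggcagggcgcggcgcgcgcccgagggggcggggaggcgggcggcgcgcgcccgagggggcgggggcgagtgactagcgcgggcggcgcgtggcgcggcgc
The Elovl5 window held 2 CCAAT boxes, both on the reverse strand, whose first printed bases lie at −71 and −17 from the start site, and 1 E-box at −161. Of the 32851 windows of this length in the table, 33.8% held a CCAAT box and 6.02% an E-box. The Elovl2 window held neither. It was 87.2% G or C with 49 CpG pairs, against 55.6% and 14 pairs for Elovl5 and medians of 52.4% and 6 over all windows. The letters TCACNCCAC, a form of the sterol regulatory element, were in 1.05% of all windows and in neither of these, and AGGTCA, a nuclear receptor motif, was in 14% and in neither; the 4 motifs do not overlap here. Scd1, Scd2, Elovl3 and Fads1 had no entry. By gene order in RefSeq, Fads1 and Fads2 are direct neighbours and a single protein-coding gene lies between Scd1 and Scd2.

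Each liver or tumour RNA sample was hybridised to 1 Affymetrix mouse expression array. Wild type C57/B6 mice gave 5 livers at week 20 and 4 at week 48, on the basal diet. Mice with a Pdgf-c transgene, which encodes platelet-derived growth factor C and gives liver fibrosis by week 20 and tumours by week 48, gave 5 livers on the basal diet at each age and 5 tumours at week 48. Transgenic mice on a diet with 0.06% peretinoin, an acyclic retinoid given from weaning at week 4, gave 5 livers at each age. The sources used here name neither the promoter of the transgene nor the sex of the mice, and do not state if any tumour shared its mouse with one of the livers. Each array is taken as a separate sample, so the p-values measure the spread between these samples.

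The 7 hepatocyte markers measured had a mean log2 level between 13.2 and 14.2 on every array, tumours included. Y-linked Eif2s3y gave at least 1005.5 on all 34 arrays and Xist at most 121.3, the pattern of male mice. At week 20 Pdgfc itself lay between 210 and 386.3 in transgenic liver, within or below the wild type range of 258.9 to 411.7, and at week 48 between 517.2 and 1219 against 458.2 to 518.9; whether its probe set detects the transgene is not stated. Transcripts of skeletal muscle or pancreatic acini were present on 6 arrays: week 48 wild type 4, week 20 transgenic 5, week 48 transgenic 4, week 20 peretinoin 3 and 5, and week 48 peretinoin 1. The ratio of 3′ to 5′ Actb signal, a measure of RNA or labelling quality, was 1.624 to 1.745 in week 20 transgenic liver and 1.701 to 3.312 with peretinoin at that age. Median array signals ran from 71.5 to 95.7, and precision is limited by how many arrays each group has.

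Across the 7 groups the family did not move as one. Scd2 and Elovl3 spanned the widest range of signals, from 126.3 to 12179 and from 65.7 to 23405, whereas Elovl2 stayed within 9711 and 16445 on all 34 arrays. A limma F test found a difference among the groups for 7 of 9 members, where 57.7% of all genes were called. Elovl5 (adjusted p = 9.33e-08) and Scd2 (2.36e-07) had the smallest p-values. Elovl1 (adjusted p = 0.158) and Fads2 (0.0854) did not pass.

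**Figure D1:**
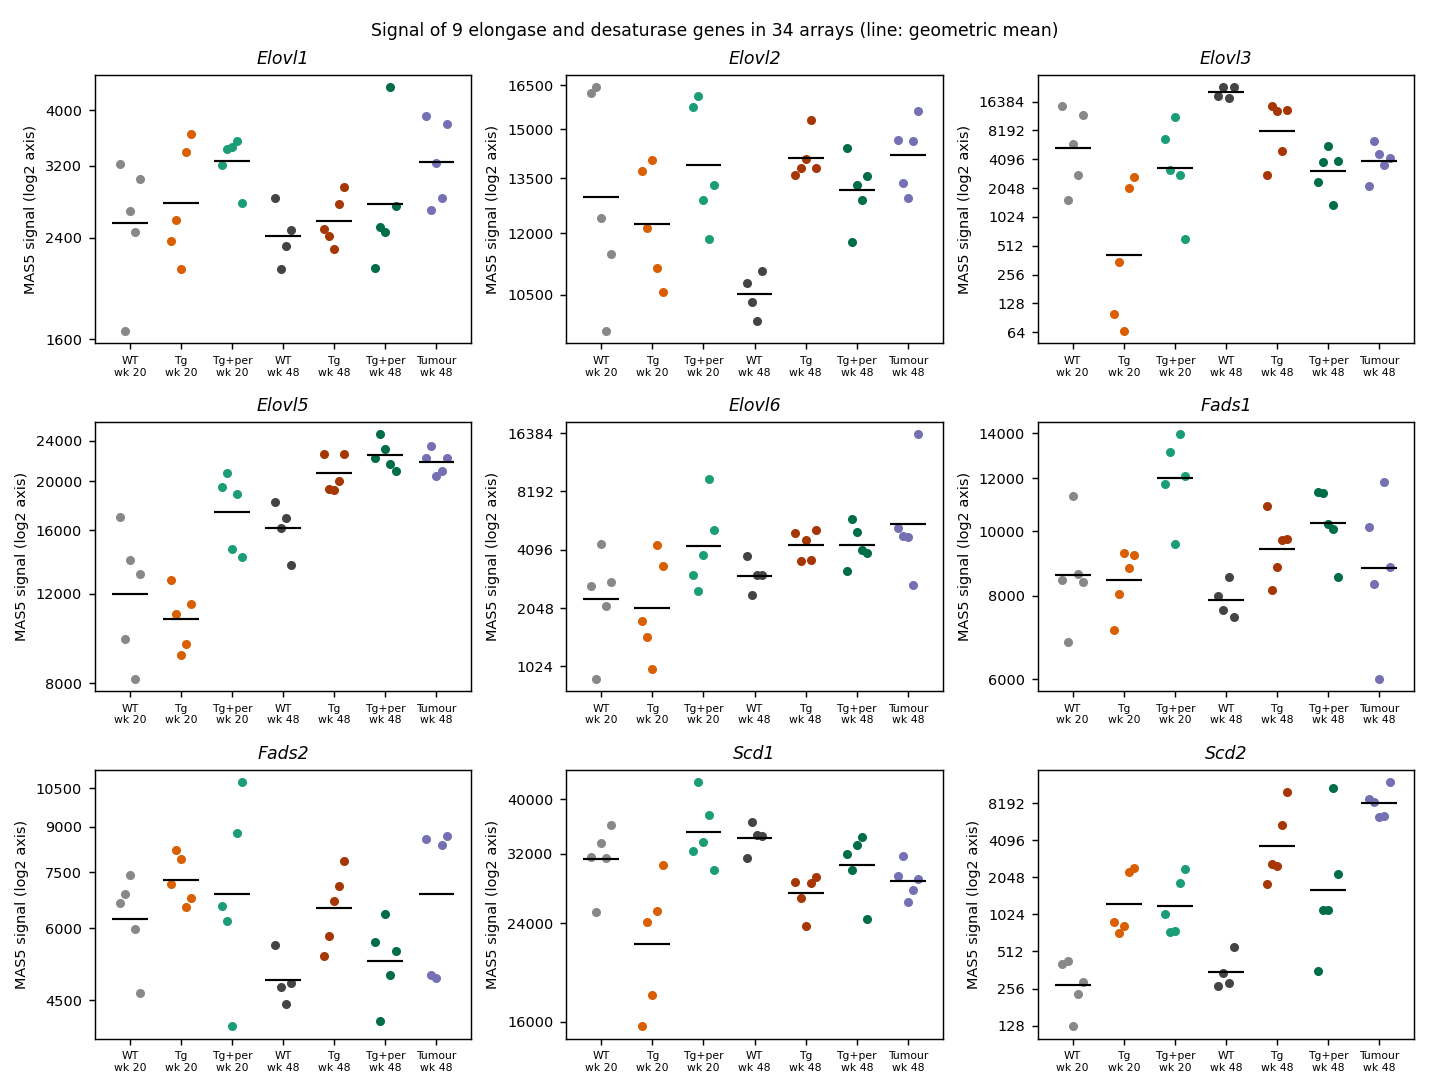
MAS5 signal of each of the 9 genes on each of the 34 arrays (points; vertical axes are logarithmic and differ between panels), with the geometric mean of each group as a line. Scd2 lies lowest in both wild type groups and highest in tumours (6345 to 12179), Elovl3 falls to 65.7 in week 20 transgenic liver, and Elovl5 lies at 19200.4 or more on every array of week 48 transgenic tissue.

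Most neighbouring groups could not be separated when the 7 groups were put in order of level. Each gene's order came from the same group means that its steps were then tested on. The adjustment ran over genes and not over pairs of groups, so the step p-values are only a description. Elovl3 ran from week 48 wild type (mean log2 level 14.34) through week 48 transgenic, week 20 wild type, tumour, week 20 peretinoin and week 48 peretinoin to week 20 transgenic liver (8.82). Its only step that passed the test was the last, 2.78 ± 0.78 (SE) on the log2 scale (adjusted p = 0.0137). Scd2 ran from tumour (13.00) through week 48 transgenic, week 48 peretinoin, week 20 transgenic and week 20 peretinoin to week 48 and week 20 wild type (8.17). Its only such step separated week 20 peretinoin from week 48 wild type liver (1.74 ± 0.60, adjusted p = 0.0273). Elovl5 was highest in the 3 week 48 transgenic groups and lowest in week 20 transgenic liver, and none of its neighbouring steps passed, nor did any for the other 6 genes. From highest to lowest group, the log2 span was 1.42 for Elovl6, 1.07 for Elovl5, 0.67 for Scd1, 0.60 for Fads1, 0.58 for Fads2 and 0.43 for both Elovl1 and Elovl2.

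At week 20, when transgenic livers are sampled for fibrosis, the transgene went with less Elovl3 and Scd1 RNA and more Scd2. Of 9 members 1 rose and 2 fell, beside 23.7% of all genes called. The polyunsaturated fatty acid enzymes Elovl2, Elovl5, Fads1 and Fads2 had log2 changes between −0.17 and 0.23, none of which passed. The median change was −0.08 for the 9 members and 0.06 for all genes. The Actb ratio was 1.806 to 2.157 in wild type and at most 1.745 in these transgenic livers; with it as a covariate all 3 calls held, at −3.22 for Elovl3, −0.45 for Scd1 and 1.60 for Scd2 (limma adjusted p = 0.00472, 0.0171 and 0.029).

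Elovl3, the elongase of very long saturated and monounsaturated chains, gave signals of 14819, 1533, 5943, 2789 and 11888 in wild type liver. In transgenic liver it gave 98.7, 343.6, 65.7, 2069 and 2662. The first 3 transgenic livers were below every wild type liver and the other 2 were within the wild type range, so the groups overlapped. The means were 7394 ± 5766 (SD, n = 5) and 1048 ± 1226 (n = 5), and on the log2 scale Elovl3 fell by 3.58 ± 0.78 (SE, limma adjusted p = 0.000947).

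Male-biased liver genes were low on the same 3 arrays. All 8 measured genes of that list were used, of 10 listed, and their mean log2 level spanned 13.20 to 13.66 on week 20 wild type arrays, against 10.05 to 12.99 on transgenic ones. Hsd3b5, a male-specific steroid dehydrogenase, gave 28.8, 12.5, 14, 6824 and 2441 in transgenic liver, listed liver by liver as for Elovl3 above, and 10140 to 20919 in wild type. Transgenic livers 4 and 5 had the highest Hsd3b5 and the highest Elovl3 of the group, but their Hsd3b5 was still below every wild type liver. Female-biased Cyp2b9 gave 1642, 352.3, 3647, 67.6 and 72.7 against 45.4 to 84.8 in wild type. Its list, with 5 genes measured, had a mean log2 level of 6.89 to 8.45 on transgenic and 6.53 to 7.20 on wild type arrays, which overlap. At week 48 Cyp2b9 gave 34.6 to 529.5 (median 52.9) in transgenic and 163.2 to 339.4 (median 234) in wild type liver. The part of these genes' shift in the Elovl3 result was not tested.

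**Figure D2:**
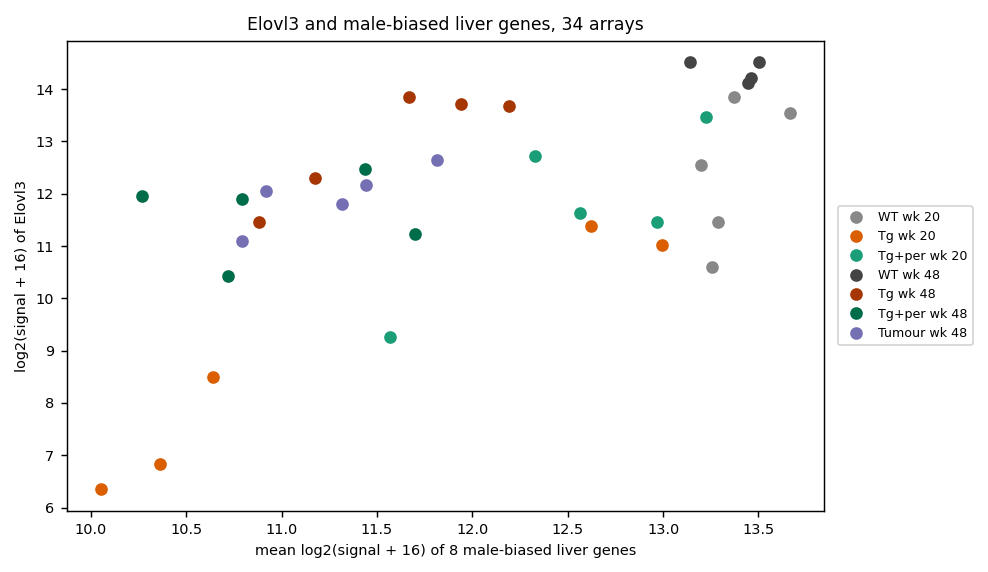
Elovl3 level (vertical, log2 of signal plus 16) against the mean level of 8 male-biased liver genes (horizontal, same scale) on each of 34 arrays, coloured by group. Wild type livers of both ages lie at the right, between 13.14 and 13.66, and 3 week 20 transgenic livers lie at the lower left; week 48 transgenic tissue has male-biased levels of 10.27 to 12.19 with Elovl3 signals of 1356 or more.

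Scd1, the stearoyl-CoA desaturase of adult liver, gave 31497, 25106, 33472, 31414 and 35960.1 in week 20 wild type liver. The transgenic livers gave 15696, 24155, 17878, 25204 and 30481, 3 of them below every wild type liver. Scd1 fell by 0.50 ± 0.13 on the log2 scale (limma adjusted p = 0.00421). This call was lost with quantile normalization (−0.23, adjusted p = 0.151) and with the mean of both Scd1 probe sets (−0.57, adjusted p = 0.0804). The second Scd1 probe set had wider groups, 1959 to 12759 with the transgene against 3736 to 14564 without it.

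Scd2, the other stearoyl-CoA desaturase, gave 406.8, 425.4, 126.3, 229.6 and 290.8 in week 20 wild type liver. In transgenic liver it gave 886.4, 729, 822, 2247 and 2433, and all 5 lay above all 5 wild type livers. Scd2 was the only member whose groups did not overlap at this age, as for 16.1% of all genes. It rose 4.35-fold (log2 change 2.12 ± 0.56, limma adjusted p = 0.00573). A second Scd2 probe set rose as well (1.82 ± 0.58, adjusted p = 0.0393), and the third, dimmer one did not pass (0.80 ± 0.46, adjusted p = 0.318).

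Genes that mark hepatic stellate cells and myofibroblasts, which lay down matrix in fibrosis, were higher in the same livers. Of the 8 markers 5 rose, where 23.7% of all genes were called in either direction. The mean log2 level of all 8 was 10.41 to 10.76 with the transgene against 7.95 to 8.84 without it. Pdgfrb, a receptor for platelet-derived growth factor on these cells, went from a median of 329.9 to 2623, and Col1a1 from 38.4 to 793.3. Adipocyte markers stayed low, with Adipoq at most 367.5 in wild type and 231.9 in transgenic liver. In whole tissue, more cells of one kind and more RNA per cell cannot be told apart, and the part of these markers in the Scd2 result was not tested.

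At week 48, transgenic liver held more Scd2 and Elovl2 RNA than wild type liver. These 2 of 9 members rose and none fell, where 20.8% of all genes were called. The median change was 0.36 for the members and 0.04 for all genes. The groups of 5 members did not overlap (Scd2, Elovl2 and Elovl5 higher, Elovl3 and Scd1 lower in transgenic liver), as for 21.4% of all genes.

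Scd2 gave 266.2, 345.2, 285.9 and 551.8 in the 4 wild type livers. The 5 transgenic livers gave 1788, 2618, 2535, 5442 and 10001, the last of which exceeded some tumours. Scd2 rose 10.1-fold (log2 change 3.33 ± 0.60, limma adjusted p = 0.000115), and all 3 of its probe sets passed (3.33, 3.13 and 2.21). The stellate cell list had a level of 10.13 to 10.86 on the transgenic arrays against 8.401 to 9.36 on the wild type ones. The 5 adipocyte markers had a median level of 6.34 and reached 8.47 on transgenic array 4 (Adipoq 840.8), against a median of 6.84 and up to 8.01 for wild type (Adipoq 680.6). The part of either list in the Scd2 result was not tested.

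Elovl2, which makes the longest polyunsaturated chains on the way to docosahexaenoic acid, gave 10784, 10347, 9933 and 11046 in wild type liver. In transgenic liver it gave 13604, 13810, 14063, 15306 and 13799, all above the wild type range. The rise was small, 1.34-fold (log2 change 0.42 ± 0.12, limma adjusted p = 0.00908), and the call held in all 13 alternative settings and with each array left out in turn. Week 20 wild type livers gave 9711 to 16445, which spans the week 48 values of both genotypes.

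The other members at week 48 did not pass the test. Elovl5, the elongase of the middle polyunsaturated chains, gave 18146, 16195, 16909 and 13677 in wild type and 22644, 19327, 19200.4, 19984 and 22627 in transgenic liver (log2 change 0.36 ± 0.14, adjusted p = 0.074). Scd1 gave 31367, 36394, 34573 and 34413 and 28471, 26679, 23767, 28350.3 and 29069 (−0.33 ± 0.14, adjusted p = 0.0857). Both pairs of groups were separate on the arrays although the adjusted p missed the threshold. The second Scd1 probe set had the opposite sign (0.61 ± 0.40, adjusted p = 0.384 in a fit of all probe sets), so no direction is given for Scd1 at this age.

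Elovl3 stayed below wild type on every week 48 transgenic array. It gave 18863, 23389, 17828 and 23405 in wild type liver. In transgenic liver it gave 2817, 14698, 13113, 5052 and 13339, a log2 change of −1.34 ± 0.82 (adjusted p = 0.264). The male-biased list was 10.88 to 12.19 on these arrays against 13.14 to 13.50 for wild type. The change in Elovl3 between genotypes was not shown to differ between ages (difference 2.24 ± 1.13, adjusted p = 0.393). For that difference between ages, 0 of 9 members were called, as were 0.275% of all genes. Without the adjustment 1723 of 13099 genes, Elovl2 and Elovl5 among them, had limma p under 0.05.

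In a fit of only the 9 week 48 arrays compared, 7 of 9 members passed, as did 21.8% of all genes: Elovl5, Elovl6 and Fads2 were then higher, and Elovl3 and the brighter Scd1 probe set lower, beside Scd2 and Elovl2. The changes themselves were the same, and their standard errors were smaller; for Elovl6 it was 0.15 in place of 0.43.

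Tumours were compared with week 48 transgenic liver, the same 5 livers that were set against wild type above. None of the 9 members passed the limma test, as for 0% of all genes; without the adjustment 1075 of 13099 genes, Scd2 among them, had p under 0.05. The median change was 0.08 for the members and 0.01 for all genes. Scd2 gave 8889, 8366, 6345, 6375 and 12179 in the 5 tumours, and the lowest tumour was above 4 of the 5 transgenic livers. Its log2 change against transgenic liver was 1.16 ± 0.56 (adjusted p = 0.595). Each tumour was above the liver of the same number, but the sources used here do not state that the numbers pair samples.

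Single tumours lay outside the transgenic range for other members. Elovl6, the elongase of palmitate, gave 5314, 4813, 4749.8, 2686 and 16149 in the tumours and 3562 to 5203 in transgenic liver. Tumours 1 and 5 were above and tumour 4 below every transgenic liver, and the log2 change was 0.35 ± 0.40 (adjusted p = 0.915). Fads2 gave 8563, 4989, 4931, 8383 and 8676, 3 tumours above and 2 below the transgenic range of 5369 to 7866. The 5 markers of dividing cells had a mean log2 level of 8.09 to 10.15 in tumours and 6.87 to 8.37 in transgenic liver.

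Against wild type liver of the same age, tumours held more Scd2, Elovl2 and Elovl5 and less Elovl3. These 4 of 9 members were called, beside 27.1% of all genes. Scd2 rose 22.5-fold (log2 change 4.49 ± 0.60, limma adjusted p = 1.27e-06). Elovl2 rose by 0.43 ± 0.12 (adjusted p = 0.0056), with tumours at 14671, 13360.3, 12939, 14629.5 and 15618, all above wild type. Elovl5 rose by 0.43 ± 0.14 (adjusted p = 0.0228), a call that was lost without wild type replicate 4, which carried muscle transcripts (0.35, adjusted p = 0.0931), and without the arrays that carried another tissue's transcripts (0.35, adjusted p = 0.087). Elovl3 fell by 2.39 ± 0.82 (adjusted p = 0.029), with 2175, 6353, 4603, 3535 and 4224 in tumours. That call was lost when any 1 of the 4 wild type livers or tumour 1 was left out (adjusted p from 0.0507 to 0.0692), and with the Actb ratio as a covariate (adjusted p = 0.0569). Elovl6 did not pass (0.88, adjusted p = 0.129), and its dimmest probe set had the opposite sign (−1.23 ± 0.41, adjusted p = 0.0423 in a fit of all probe sets). These tumours share their wild type controls with the transgenic livers above.

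**Figure D3:**
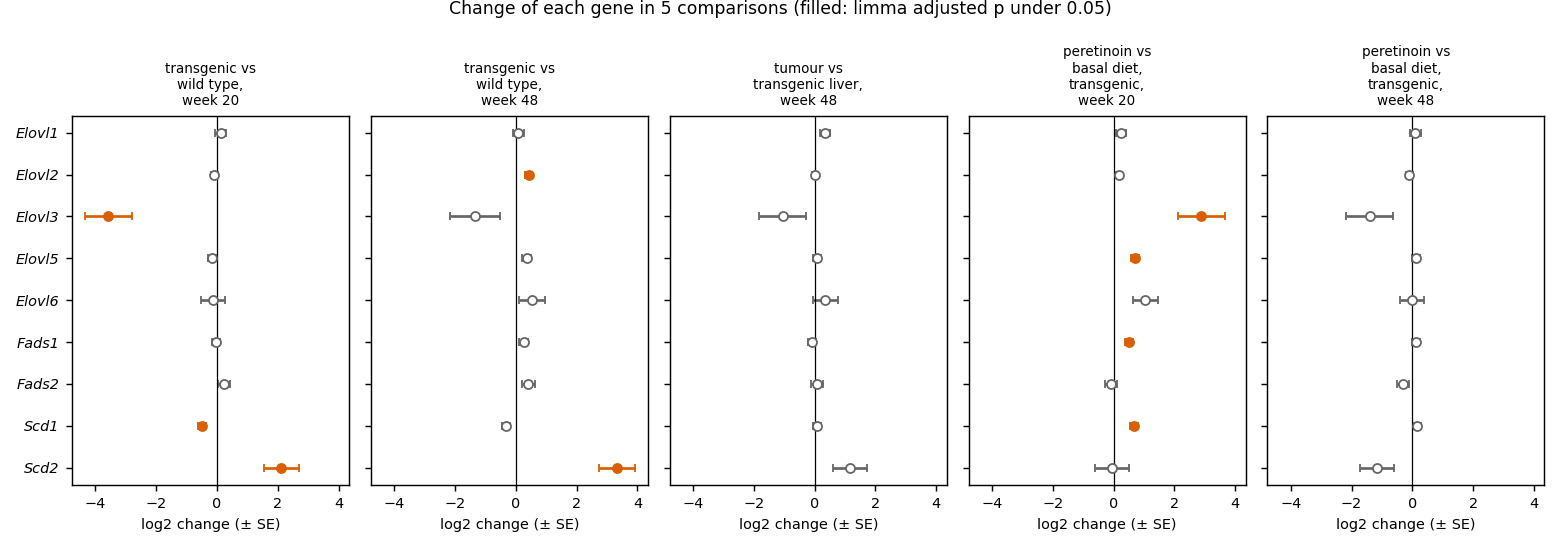
Log2 change (point) with its standard error (bar) of each of the 9 genes in the 5 main comparisons; filled points passed limma's test at an adjusted p under 0.05. Scd2 is called with the transgene at both ages (2.12 and 3.33), 4 genes are called with peretinoin at week 20, and none is called in tumours against transgenic liver or with peretinoin at week 48.

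At week 20, transgenic mice fed peretinoin had more Elovl5, Scd1, Fads1 and Elovl3 RNA than those on the basal diet. These 4 of 9 members rose and none fell, where 2.89% of all genes were called. The median change was 0.51 for the members and −0.02 for all genes. Scd2, which rose with the transgene, had 1023, 731.6, 749.3, 1849.8 and 2386 with peretinoin, and the change was −0.05 ± 0.56 (adjusted p = 0.976). The 5 basal-diet transgenic livers are those compared with wild type above, so both comparisons share them.

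Elovl5 gave 12748, 10968, 9110.4, 9569.5 and 11470.4 on the basal diet. With peretinoin it gave 19504, 20776, 14689, 18833 and 14183, all above the basal-diet range. It rose 1.63-fold (log2 change 0.70 ± 0.14, limma adjusted p = 0.00701), and its second probe set rose alike (0.74 ± 0.15, adjusted p = 0.0102). Wild type livers of that age gave 16998, 9791, 13981, 8169 and 13147, below 3 of the 5 peretinoin livers.

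Fads1, which makes arachidonic and eicosapentaenoic acids, gave 7108, 8051, 9280.2, 8816 and 9207 on the basal diet. With peretinoin it gave 11766, 13119, 9570.1, 13951 and 12078, again without overlap. Elovl5 and Fads1 were the 2 members whose groups did not overlap, as for 5.02% of all genes. Fads1 rose 1.42-fold (log2 change 0.51 ± 0.14, limma adjusted p = 0.0368). Fads2, the enzyme of the step before Elovl5, gave 6574, 6179, 4059, 8783 and 10770.2 with peretinoin, on both sides of the basal-diet range of 6540 to 8211.

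Scd1 gave 32316, 43021, 33519, 37512 and 29901 with peretinoin, and 4 of 5 were above the highest basal-diet liver of 30481. It rose 1.59-fold (log2 change 0.67 ± 0.13, limma adjusted p = 0.00701). Its second probe set, in a fit of all probe sets, gave 0.97 ± 0.38 (adjusted p = 0.198), and the mean of both probe sets gave 0.82 (adjusted p = 0.0523). The peretinoin livers overlapped the wild type livers of that age, 25106 to 35960.

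Elovl3 gave 6746, 3165, 11307, 2814 and 600.9 with peretinoin. The first 4 of these lay above all 5 basal-diet livers and the last within their range. It rose 7.43-fold (log2 change 2.89 ± 0.78, limma adjusted p = 0.0368). The male-biased list was 11.57 to 13.23 with peretinoin against 10.05 to 12.99 on the basal diet, and its part in the result was not tested. Elovl6 gave 1757, 1449.8, 990.7, 4356 and 3369 on the basal diet and 3019.8, 2502, 3844, 9445 and 5193 with peretinoin, and its log2 change of 1.05 ± 0.40 did not pass (adjusted p = 0.136).

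All 4 calls rest on arrays whose Actb ratio differed between the diets. The Actb ratio was at least 2.384 in 4 of the 5 peretinoin livers and at most 1.745 in the 5 basal-diet livers. With that ratio as a covariate, which was added after the data were seen, the changes were 0.48 for Elovl5, 0.49 for Scd1, 0.47 for Fads1 and 1.84 for Elovl3. None of these passed (adjusted p = 0.628, 0.628, 0.638 and 0.752), and no gene on the array did. Elovl3 and Fads1 were also lost when any of the first 3 basal-diet livers or the first 2 peretinoin livers was left out, as was Elovl3 without peretinoin liver 3 and Fads1 without peretinoin liver 4, whereas Elovl5 and Scd1 held with each array left out in turn. In a fit of only the arrays compared Scd1 (adjusted p = 0.0631) and Elovl3 (0.126) were lost. Fads1 was lost with quantile normalization (0.0765), median centring (0.0813), no intensity trend (0.0524) and no filter (0.0512), and Elovl3 with median centring (0.0507) and no filter (0.0501).

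**Figure D4:**
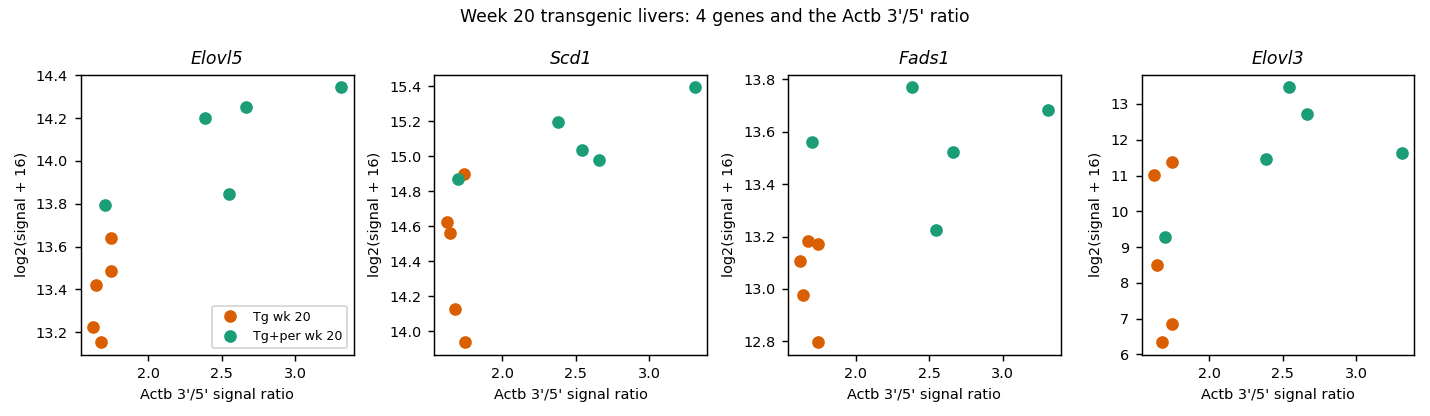
Level of Elovl5, Scd1, Fads1 and Elovl3 (vertical, log2 of signal plus 16) against the 3′ to 5′ signal ratio of Actb (horizontal) in the 10 week 20 transgenic livers, by diet. Of the peretinoin livers 4 lie at ratios of 2.384 to 3.312 and 1, liver 5, at 1.701, beside the basal-diet livers. In liver 5 Elovl5 (14183) and Fads1 (12078) are above all basal-diet livers, and Scd1 (29901) and Elovl3 (600.9) are within their range. That liver carried skeletal muscle transcripts (list level 7.21 above the median of all arrays), whose part in these values was not tested.

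At week 48 none of the 9 members passed the test for peretinoin, where 0.725% of all genes were called. Without the adjustment 1835 of 13099 genes had limma p under 0.05, and of the 9 members Scd2 alone. The median change was −0.0037 for the members and −0.02 for all genes. Scd2 gave 357.3, 1119, 1102, 10849 and 2186 with peretinoin. The first 3 of these were below every basal-diet liver and liver 4 was above them all, and the log2 change was −1.17 ± 0.56 (adjusted p = 0.348). Without liver 4 Scd2 fell by 1.86 ± 0.48 (limma adjusted p = 0.0426), and no other array left out gave a call. Liver 1, the lowest for Scd2, carried skeletal muscle transcripts (list level 7.93 above the median of all arrays), whose part was not tested. The stellate cell list was 9.71 to 10.21 with peretinoin and 10.13 to 10.86 on the basal diet, and dividing-cell markers reached 9.69 in the peretinoin group against at most 8.37.

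Elovl3 gave 2381, 3823, 5658, 1356 and 3952 with peretinoin at week 48, 2 of them below all basal-diet livers (log2 change −1.41 ± 0.78, adjusted p = 0.429). Against the rise at week 20 this is a difference of −4.30 ± 1.10 between ages, which missed the threshold (adjusted p = 0.0567). It passed in 3 alternatives: a stricter filter (adjusted p = 0.0465), array weights (0.0148) and without the 6 arrays that carried another tissue's transcripts (0.0242). For this difference 0 of 9 members were called, as were 0.679% of all genes, and all 9 values were below 0. Without the adjustment 1780 of 13099 genes, Elovl3, Elovl5 and Scd1 among them, had limma p under 0.05.

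Elovl3 is a gene with a daily rhythm. Of 12 clock genes listed, 3 were higher and 4 lower at week 48 than at week 20 in wild type liver. In transgenic liver 3 were higher and 7 lower. Over all genes 6.88% were called with age in wild type and 15.7% in transgenic liver. Arntl gave 60.3 to 351 in week 20 and 513.8 to 746.1 in week 48 wild type liver. In transgenic liver it gave 190.2 to 229 and 473.2 to 1074.9, again without overlap. Nr1d1, a clock repressor, overlapped between the ages in wild type liver (176.4 to 590.9 and 281.9 to 661.9). Dbp, a clock output gene, gave 2298 to 9879 in week 20 wild type and 142.7 to 1084 in week 48 wild type liver. At week 48 it gave 1435, 126.5, 1715, 907.8 and 155.7 on the basal diet. With peretinoin it gave 3432, 6853, 4109, 360.5 and 608.6, the first 3 of them above every basal-diet liver. The time of day at which mice were killed is not given in the sources used here, and the part of the clock in these results was not tested.

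In transgenic liver Elovl3 and Elovl5 were higher at the later age. These 2 of 9 members rose from week 20 to week 48 and none fell, beside 15.7% of all genes. Both groups are the basal-diet transgenic livers compared above, so the comparisons share them. The low week 20 Elovl3 values thus enter the comparisons with wild type, with peretinoin and with age. Elovl3 rose by 4.18 ± 0.78 on the log2 scale (limma adjusted p = 0.000586) and Elovl5 1.93-fold (0.95 ± 0.14, adjusted p = 3.67e-05), and all 5 older livers were above all 5 younger ones for both, as for 14.3% of all genes in either direction. The Actb ratio was 1.624 to 1.745 in the younger and 1.296 to 1.565 in the older transgenic livers, and with it as a covariate the changes were 4.71 for Elovl3 (adjusted p = 0.000523) and 1.06 for Elovl5 (adjusted p = 3.78e-05). Scd1 gave 0.30 ± 0.13 (adjusted p = 0.107) by its brighter probe set. Its second probe set rose by 2.02 ± 0.38 (adjusted p = 0.000909 in a fit of all probe sets), from 1959 to 12759 at week 20 to 20122 to 25603 at week 48, and the mean of both rose by 1.16 (adjusted p = 0.00139). Scd2 (1.55 ± 0.56, adjusted p = 0.057) and Elovl6 (1.07 ± 0.40, adjusted p = 0.0659) were just outside the threshold. In wild type liver 0 of 9 members passed, where 6.88% of all genes were called. Without the adjustment 2750 of 13099 genes, Elovl2, Elovl3 and Elovl5 among them, had limma p under 0.05. Wild type Elovl5 changed by 0.43 ± 0.14 (adjusted p = 0.0664), and Elovl3 by 1.94 ± 0.82 (adjusted p = 0.16) with all 4 older livers above all 5 younger ones, as for 8.84% of all genes in either direction. The Actb ratio was 1.806 to 2.157 in the younger and 1.388 to 1.712 in the older wild type livers.

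The change in Scd2 was also taken relative to Scd1 on the same array, since both are stearoyl-CoA desaturases. This difference of log2 signals was −6.76 ± 0.79 (SD, n = 5) in week 20 wild type and −4.14 ± 0.62 (n = 5) in transgenic liver. It shows unequal change of the 2 probe sets and not their relative amounts. The shift of 2.63 had the smallest p that an exact permutation test of 5 against 5 arrays can give (p = 0.00794, two-sided, adjusted over 6 comparisons 0.0159). At week 48 the difference was −6.55 ± 0.43 (n = 4) in wild type, −2.89 ± 0.95 (n = 5) in transgenic liver and −1.80 ± 0.35 (n = 5) in tumours. The shifts against wild type were 3.66 and 4.75 (both exact permutation p = 0.00794, adjusted 0.0159). For transgenic liver that p was fixed in advance, so it adds no new evidence. Scd2 lay higher and the brighter Scd1 probe set lower on every one of these arrays. The second Scd1 probe set had the opposite sign in that comparison (0.61 ± 0.40).

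Neither tumours against transgenic liver nor peretinoin passed in this measure. The tumour shift was 1.09 (exact permutation p = 0.0635, adjusted 0.0952). Peretinoin shifted it by −0.71 at week 20 (p = 0.175, adjusted 0.175) and by −1.34 at week 48 (p = 0.167, adjusted 0.175), exact permutation tests of 5 against 5. The spread with peretinoin at week 48 was the widest of the 7 groups, 1.78 (SD, n = 5).

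**Figure D5:**
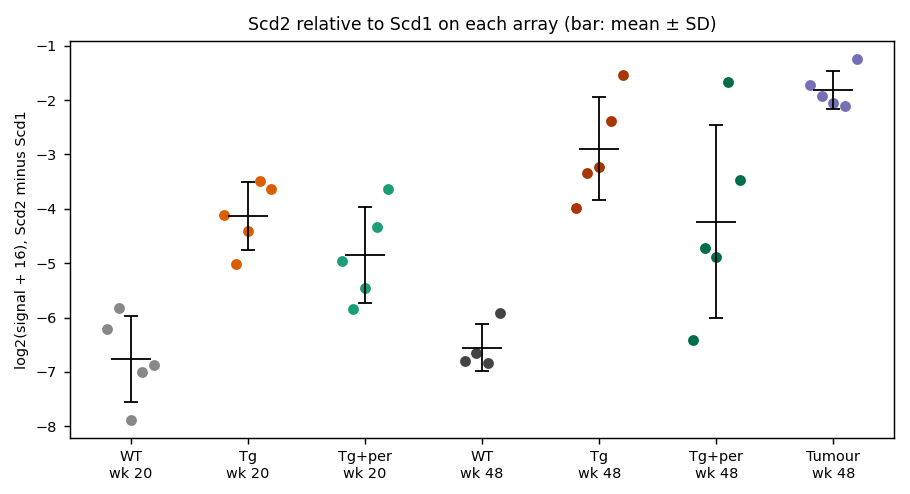
Difference of log2(signal + 16) between Scd2 and Scd1 on each array (points), with the mean and SD of each group (bars). Both wild type groups lie lowest (means −6.76 and −6.55) and tumours highest (−1.80), and the week 48 peretinoin livers have the widest spread (SD 1.78).

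Partner genes of the pathway were counted from lists of 61 genes, of which 55 were on the array and 52 kept. At week 20, 7 of these 52 rose and 13 fell in transgenic against wild type liver, where 23.7% of all genes were called. In the elongation cycle 2 of 6 partners were lower and none higher. These were Hsd17b12, its ketoacyl-CoA reductase (−0.80 ± 0.13, limma adjusted p = 3.07e-05), and Tecr, its enoyl-CoA reductase (−0.32, adjusted p = 0.0339). Of 5 genes that supply electrons to the desaturases, Cyb5b (−0.82 ± 0.16) and Cyb5a (−0.41) fell the most clearly, and in all 2 fell and 2 rose. Of 11 lipogenic regulators Insig1, a sterol sensor partner (−0.72), and Thrsp (−1.55) fell and none rose. Of 9 genes listed for fatty acid synthesis, mitochondrial Mcat and Oxsm among them, 3 fell, Me1, a source of NADPH, the most (−1.26 ± 0.25).

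Of the family genes outside the 9 members, a pair of desaturases rose at week 20. Fads6 rose by 0.53 ± 0.16 (limma adjusted p = 0.0116) and Fads3 by 0.84 ± 0.27 (adjusted p = 0.0212), 2 of the 4 other family genes kept. All 5 kept genes for the peroxisomal last step of docosahexaenoic acid synthesis were called. Of these 4 fell, with Acaa1b (−0.55) and Hsd17b4 (−0.53) at the smallest p, and 1 rose, Abcd2, a peroxisomal acyl-CoA transporter (1.55). Acsl4, which activates arachidonic acid (0.35), and Lpcat3, which places it in phospholipids (0.37), also rose.

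At week 48, 8 of the 52 partners rose and 6 fell in transgenic liver, where 20.8% of all genes were called. Abcd2 rose by 2.34 ± 0.54 (limma adjusted p = 0.00187) and Acsl3, a long-chain acyl-CoA synthetase, by 1.29 ± 0.24 (adjusted p = 0.000158). Mlxipl, which encodes ChREBP (−0.93 ± 0.27, adjusted p = 0.0119), Nr1h3, which encodes LXR alpha (−0.40), and Dgat2, an enzyme of triglyceride synthesis (−0.61), fell. Fads6, Lpcat3, Acsl4 and Hacd4, an elongation dehydratase, rose by 0.63, 0.44, 0.48 and 0.64. Srebf1 did not pass at either age (−0.34 and 0.12). In tumours against transgenic liver none of the 52 passed.

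With peretinoin at week 20, 7 of the 52 partners rose and none fell, where 2.89% of all genes were called. Insig1 rose 1.13 ± 0.14 (limma adjusted p = 6.57e-05), from a range of 1137 to 1698 on the basal diet to 2478 to 3949. Acss2, which makes acetyl-CoA from acetate, rose by 1.08, Cyb5b by 0.71, Acsl5 by 0.56, Hsd17b12 by 0.55, Cyb5r3 by 0.54 and Acaa1b by 0.39. Fasn, the synthase of palmitate, was just outside the threshold (1.38 ± 0.40, adjusted p = 0.0518), and Srebf1 gave 0.59 ± 0.23 (adjusted p = 0.141). The Actb ratio noted above differed between the same arrays, and with it as a covariate no gene passed. At week 48 none of the 52 passed with peretinoin; Insig1 (−1.07) and Cyb5b (−1.06) were called for the difference of the peretinoin effect between ages.

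With age, 15 of the 52 partners rose and 5 fell in transgenic liver, where 15.7% of all genes were called. Of the 9 genes listed for fatty acid synthesis 5 were among those that rose. By values seen first, these were Acss2 (1.73), Fasn (1.46), Acacb (1.45), Me1 (1.31) and Acly (0.70). In wild type liver 2 rose, Hsd17b12 (0.54) and Insig2 (0.998), and none fell, where 6.88% of all genes were called.

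The genes most like each member were found by Pearson's r of log2 signals over the 34 arrays, which share groups and array quality, so r is a description. For Scd2 they were Anxa2 (0.931) and Tpm4 (0.93), with r of 0.76 and 0.75 once group means were taken out. For Scd1 they were Dbi, which binds acyl-CoA (0.894), and Bhmt (0.851). Elovl6 was most like Fasn (0.858, and 0.816 within groups) and Pstpip2 (0.788), and Elovl3 like Hsd3b7 (0.884) and Slc30a10 (0.865). Elovl5 was most like Vps41 (0.878) and Cpsf3 (0.872), the latter with 0.546 within groups. The remaining members had lower values: Elovl1 with Cdca8 (0.746) and Tufm (0.74), Fads1 with Nelfe (0.73) and Slc44a3 (0.72), Elovl2 with Esm1 (0.709) and Abcd2 (0.694), and Fads2 with Syce2 (0.695) and Smad7 (0.691). Between members r was highest for Elovl3 with Scd1 (0.639) and Elovl5 with Elovl6 (0.628), and the neighbours Scd1 and Scd2 gave −0.176 and Fads1 and Fads2 0.32. With group means taken out these pairs gave 0.532, 0.253, 0.152 and 0.417 in that order, so the sign for Scd1 and Scd2 turned, and the highest pair was then Elovl1 with Elovl6 (0.563).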

How the data were processed

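The authors deposited MAS5 signals, linear intensities per probe set, for 34 Affymetrix mouse expression arrays; MAS5 is named, without a version, in the submitters' processing notes. On every array the mean after trimming 2% at each end was 500.003 or 500.004. Signals were taken as log2(signal + 16), the upper 60% of non-control probe sets by mean signal was kept (27022 of 45101), and each gene was represented by its brightest probe set with a single symbol. A fold change is on that scale and understates changes of dim genes. All 13099 genes were fitted over the 7 groups in one limma model (limma 3.58.1, R 4.3.3, intensity trend), and a gene was called where its p, adjusted over all genes by Benjamini-Hochberg, was under 0.05. Scd2 minus Scd1 was tested with exact permutation tests, two-sided. The scripts were tested on simulated data. Promoters and gene order came from RefSeq tables on GRCm38.p6.

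The members and lists were chosen with earlier results of these data known. Text names all 9 members, up to 2 called genes of smallest p per pathway list and main comparison, the 2 genes most like each member, and marker genes where a list needs them. Abcd2 at week 20, Fasn, Srebf1 and the partner genes named for age or for differences between ages were named after their values were seen. Alternatives were other offsets, filters, normalizations, probe set rules, weights, blocks and subsets of arrays; the Actb covariate was added after the data were seen.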

Additional observations from a re-analysis of the deposited data

Results flagged for a closer look

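Elovl2 gave 15306.2 in week 48 transgenic liver 4, against 13603.5 to 14062.9 in the other 4 livers of that group. Its gap to the nearest liver was 0.718 of the group's range on the log2 scale, above the Dixon limit for 5 samples. It was the 1 such value among 63 combinations of gene and group tested, and chance gives about 1 in 20. This array also carried skeletal muscle and pancreatic acinar transcripts, whose part in the value was not tested. Without it the rise of Elovl2 against wild type was 0.39 (limma adjusted p = 0.0257).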

How the results depend on the processing

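No change that passed the test turned its direction under any alternative run; some that had not passed did, Scd1 at week 48 with the mean of probe sets among them. Members called for the transgene at week 48 went from 2 to 4 with array weights and 7 with only the arrays compared. For peretinoin at week 20 they went from 4 to 2 with no filter, with median centring and with only the arrays compared, to 0 with the Actb covariate, and ran from 2 to 4 with each array left out. Leaving out 1 array gave 0 to 1 for peretinoin at week 48, 2 to 5 for tumours against wild type, 2 to 5 for age in transgenic liver, and 0 to 1 for age in wild type and for the peretinoin difference between ages. Age in wild type gave 1 with the replicate block and with the Actb covariate. Age in transgenic liver gave 4 with quantile normalization, median centring, the mean of probe sets, array weights, the replicate block, without arrays of another tissue and with only the arrays compared. The transgene difference between ages gave 1 with median centring, and that of peretinoin 1 with the upper 40% of probe sets, array weights and without arrays of another tissue.

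Scd2 minus Scd1 with the replicate block no longer passed at 2.63 (week 20), 3.32 (week 48) and 4.61 (tumour against wild type); the block leaves fewer arrangements. Without arrays of another tissue, the week 48 shifts against wild type, 3.74 for transgenic liver and 4.96 for tumours, no longer passed. This too leaves fewer arrangements, and with all arrays the shifts were 3.66 and 4.75. With the mean of probe sets, tumour against transgenic liver (1.13) and peretinoin at week 20 (−1.30) passed. With each array left out the values ran from 3.32 to 3.93, 0.82 to 1.43, 4.61 to 4.96 and, for peretinoin at week 48, −1.99 to −0.79. In no comparison did the deviations of every same-numbered pair correlate above 0.1, so the numbers were not taken to pair samples. Tumours and transgenic livers came nearest (r from 0.0771 to 0.29, 4 of 5 best matched to their own number); there the replicate block called 0 genes, as did the fit without it.

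Over the alternative settings, genes called for peretinoin at week 20 ran from 0 to 1516 (378 as reported) and at week 48 from 4 to 128 (95). Tumours against transgenic liver gave 0 to 137 (0), age in wild type 302 to 1030 (901) and in transgenic liver 1746 to 3377 (2063). The transgene and peretinoin differences between ages gave 15 to 109 (36) and 10 to 407 (89). With each array left out in turn the ranges were, in that order, 51 to 879, 26 to 180, 0 to 6, 518 to 854, 1501 to 2035, 12 to 66 and 11 to 215. Except where stated, the cause was not tested. Groups of 4 or 5 arrays limit what could be called.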
